A study of Mus musculus with 26 samples.

Results

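The messenger RNAs of 49 genes of the cell division cycle and of DNA replication were followed across antigen-presenting cells of mouse lung and spleen, with and without the kinase mTOR. The genes were taken by symbol from a list, and all 49 were found among the 23420 symbols of the deposited table and passed the filter on low values. By their textbook roles 20 belong to the start and running of S phase, 20 to G2 and mitosis, and 9 to the control of G1. Some act in more than 1 phase, so the classes are a convention: Ccna2, counted as mitotic here, also works in S phase.

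RNA sequencing was done on sorted cells of mice labelled mTORΔAPC (KO) and of their wild-type littermates (WT), 26 libraries in 10 groups. From the spleen came CD8a dendritic cells (DCs) and CD11b DCs, each sequenced as 2 WT and 2 KO libraries. From the lung came CD11b DCs, alveolar macrophages and inflammatory DCs, each sequenced as 3 WT and 3 KO libraries. The first 4 cell types came from mice at steady state. The inflammatory DCs, WT and KO alike, came from mice given house dust mite extract into the nose several times a week (25 µL at 1 mg/mL), for 17 days by the sample labels and 18 days by the protocol. The labels give neither the allele, the Cre driver, the exons removed nor the animals' age or sex, and they do not say whether libraries came from separate or pooled animals. The p-values below therefore measure the spread between libraries, which may be technical in part.

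A dividing cell passes from G1, where D-type cyclins with Cdk4 and Cdk6 release E2F factors from the Rb protein, into S phase, where the Mcm2-7 helicase unwinds DNA for the polymerases and their clamp Pcna. The mitotic programme follows, driven by Foxm1, cyclin B with Cdk1, the Aurora and Polo kinases and, at its end, the anaphase-promoting complex with Cdc20 and Ube2c. Alveolar macrophages are known to renew themselves by division in the lung. DCs arise from dividing bone marrow progenitors, and some divide further in the tissue. mTOR is known as a kinase that ties growth and entry into the cycle to nutrients and growth factors.

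Promoters of 7 genes, chosen after their values were seen because the KO comparisons turn on them, are printed here so that the letters shared by mitotic and by S-phase genes can be seen: Mki67, Cdc20, Ube2c and Cenpf, which were lower in KO lung CD11b DCs, and Mcm2, Mcm3 and Mcm6, which were lower in KO alveolar macrophages. Each is the 200 bases before the RefSeq start site (GRCm38.p6, the assembly also called mm10), 5′ to 3′ on the strand of the gene. The positions are chr7:135716380-135716579 (minus strand) for Mki67, chr4:118437344-118437543 (minus) for Cdc20, chr2:164769729-164769928 (plus) for Ube2c, chr1:189688087-189688286 (minus) for Cenpf, chr6:88898781-88898980 (minus) for Mcm2, chr1:20820313-20820512 (minus) for Mcm3 and chr1:128359706-128359905 (minus) for Mcm6. Capitals mark matches, on either strand, to letters known from 3 kinds of factor site. For E2F the letters were TTGGCGC, and as other forms of that site also TTCGCGC, and as the last form searched for here TTCCCGC. For the cell cycle homology region (CHR), bound by the complex that times mitotic genes, they were TTTGAA and its variant form TTTAAA. For NF-Y, a factor of many promoters of cycling cells, they were CCAAT.
Mki67: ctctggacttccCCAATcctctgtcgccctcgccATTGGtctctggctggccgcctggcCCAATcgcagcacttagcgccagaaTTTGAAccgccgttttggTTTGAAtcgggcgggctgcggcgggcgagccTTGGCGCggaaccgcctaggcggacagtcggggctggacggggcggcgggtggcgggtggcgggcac
Cdc20: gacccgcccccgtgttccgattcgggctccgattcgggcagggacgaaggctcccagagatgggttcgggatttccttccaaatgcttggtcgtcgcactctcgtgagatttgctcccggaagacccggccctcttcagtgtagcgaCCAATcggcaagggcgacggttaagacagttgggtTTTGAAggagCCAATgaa
Ube2c: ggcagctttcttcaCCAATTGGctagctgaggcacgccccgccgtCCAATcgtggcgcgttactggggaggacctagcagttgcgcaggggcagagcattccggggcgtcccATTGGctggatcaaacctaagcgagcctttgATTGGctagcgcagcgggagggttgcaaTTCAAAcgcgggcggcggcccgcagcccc
Cenpf: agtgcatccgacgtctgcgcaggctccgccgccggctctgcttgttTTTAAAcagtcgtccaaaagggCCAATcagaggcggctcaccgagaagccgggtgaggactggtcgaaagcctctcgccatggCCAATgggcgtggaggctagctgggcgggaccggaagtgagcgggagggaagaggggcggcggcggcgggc
Mcm2: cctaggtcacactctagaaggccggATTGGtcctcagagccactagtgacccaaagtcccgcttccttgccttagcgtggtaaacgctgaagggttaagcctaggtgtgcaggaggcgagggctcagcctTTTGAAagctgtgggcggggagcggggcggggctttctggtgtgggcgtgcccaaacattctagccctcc
Mcm3: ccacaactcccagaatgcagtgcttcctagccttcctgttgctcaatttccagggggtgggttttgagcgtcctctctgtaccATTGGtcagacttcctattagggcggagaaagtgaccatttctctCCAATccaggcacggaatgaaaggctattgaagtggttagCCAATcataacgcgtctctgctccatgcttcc
Mcm6: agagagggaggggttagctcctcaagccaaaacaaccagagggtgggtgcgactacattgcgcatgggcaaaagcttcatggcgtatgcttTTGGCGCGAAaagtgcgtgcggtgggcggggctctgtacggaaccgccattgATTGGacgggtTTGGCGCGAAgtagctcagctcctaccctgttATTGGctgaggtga

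The 4 mitotic promoters printed each held at least 1 CHR match and at least 2 NF-Y boxes. Within the printed bases Mki67 held 2 CHR matches, 3 NF-Y boxes and 1 E2F match, and Ube2c held 1 CHR match and 5 NF-Y boxes. Of the S-phase promoters as printed, Mcm6 held 4 E2F matches in 2 overlapping pairs, Mcm2 held 1 CHR match and 1 NF-Y box, and Mcm3 held 3 NF-Y boxes. Past the start site, beyond the print, Mcm3 also held E2F matches centred at 22, 42 and 45 bases and Mcm6 at 27 bases.

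RefSeq gave promoter windows for 40 of the 49 genes. The windows span 300 bases, 250 before the start site and 50 after it, and the same letters were counted in all 32851 windows of that table. At least 1 CHR match lay in the windows of 14 of 16 mitotic genes (87.5%), 7 of 17 S-phase genes (41.2%), 1 of 7 G1 genes (14.3%) and 27.6% of all windows. NF-Y boxes lay in 14 mitotic genes (87.5%), 10 S-phase genes (58.8%), 4 G1 genes (57.1%) and 37.4% of all windows. E2F matches were placed the other way, in 3 mitotic genes (18.8%), 9 S-phase genes (52.9%), 2 G1 genes (28.6%) and 8.07% of all windows. CHR and NF-Y matches stood together in 13 of 16 mitotic genes (81.2%), 5 of 17 S-phase genes (29.4%) and 10.7% of all windows. The median G+C content of the windows was 58.3% for mitotic genes, 57.3% for S-phase genes and 52.7% over all windows. Among the matches of all members 5 pairs of E2F matches overlapped each other, 3 E2F matches overlapped an NF-Y box and 1 pair of NF-Y boxes overlapped. A match is a string of letters and was not measured as a binding site.

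**Figure D1:**
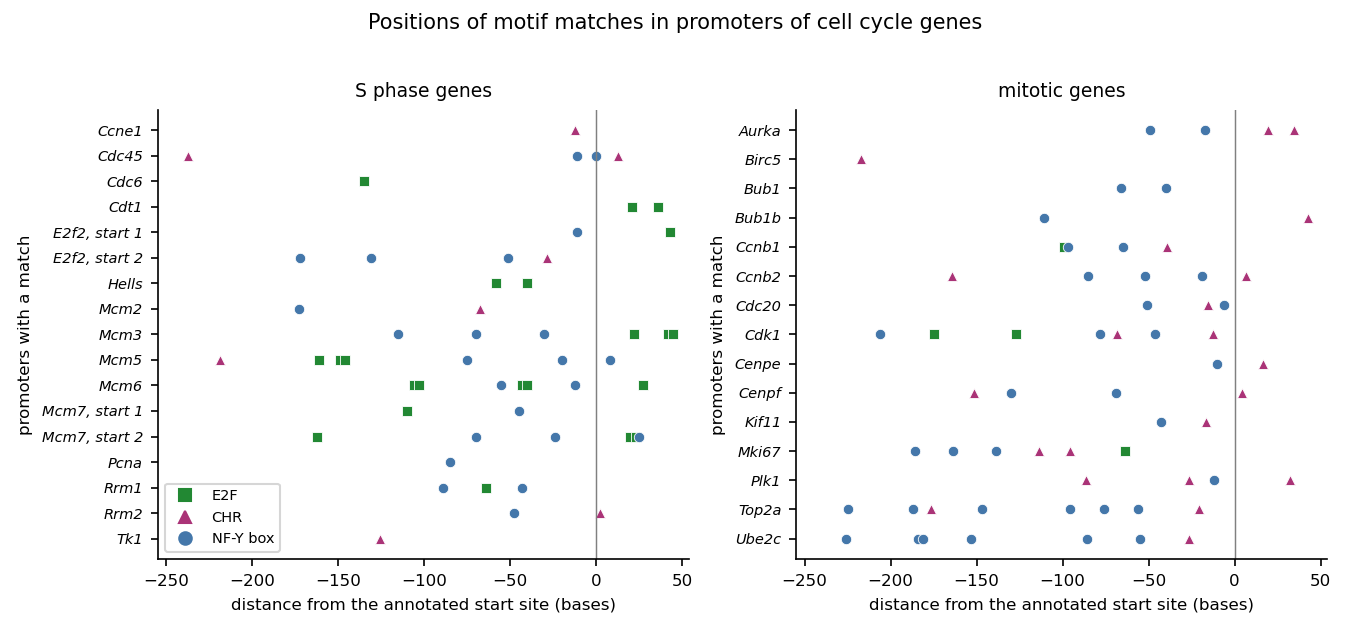
Position of E2F, CHR and NF-Y matches in the promoter windows of S-phase and mitotic genes, in bases from the start site (x axis). Each window with a match has 1 row, so E2f2 and Mcm7 take more than 1, and windows without a match are not drawn. In the 100 bases before the start lie 10 of 22 CHR matches and 22 of 35 NF-Y boxes of mitotic genes, and 5 of 22 E2F matches and 16 of 23 NF-Y boxes of S-phase genes.

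The libraries held 7366907 to 14145027 counted reads and 12992 to 14407 genes above 0. Mtor, the targeted gene, was lower in every KO library than in every WT library of its cell type. Normalized counts of Mtor were 40.0 to 104.1 in KO and 332.2 to 426.8 in WT over both spleen DCs and alveolar macrophages, 169.3 to 316.0 against 363.7 to 475.6 in lung CD11b DCs and 196.3 to 236.1 against 336.2 to 403.6 in inflammatory DCs. Cd8a marked the spleen CD8a DCs (6033.5 to 6713, at most 76.7 in any other library). The DC genes Zbtb46 and Flt3 were at 463 to 2426 and 216.5 to 10180.4 in the 3 conventional DC types but at 26.4 to 111 and 20.1 to 170.1 in the inflammatory DCs. Reads of Y-linked genes were near 0 (at most 2.3) in all WT libraries but those of inflammatory DCs, and reached 659.5 to 3295.1 in all KO libraries but lung CD11b replicates 2 and 3. KO replicate 1 of lung CD11b DCs held Y-linked reads (1317.7) together with Xist (1450.4). So did every KO alveolar macrophage library (Xist 571.9 to 2293.1), KO replicate 1 of both spleen DC types (Xist 3619.7 and 3092.4) and WT replicate 1 of inflammatory DCs (Xist 717.5). KO replicate 1 of lung CD11b DCs also stood apart from the other 2 KO libraries in many of the genes below, and is left out in turn where that matters. In these bulk samples fewer dividing cells and less RNA per dividing cell cannot be told apart.

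Levels were first described per library as the mean of log2(normalized count + 1) over the 20 genes of a class. By group mean the S-phase level was highest in WT spleen CD11b DCs, with libraries at 8.90 and 9.12, and lowest in KO inflammatory DCs, at 7.42 to 7.53. The mitotic level was also lowest in KO inflammatory DCs, at 6.60 to 6.805. At the upper end the mean mitotic levels of KO spleen CD11b (8.76), WT spleen CD11b (8.73) and KO spleen CD8a DCs (8.73) lay within the spread of their libraries, 8.45 and 9.00 in WT spleen CD11b DCs. By group mean KO inflammatory DCs were the lowest of the 10 groups for 15 of 20 S-phase and 18 of 20 mitotic genes. WT spleen CD11b DCs were the highest for 10 S-phase and 8 mitotic genes.

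The balance between the classes also differed by cell type. S-phase level minus mitotic level was -0.10 to 0.45 over the 8 spleen libraries, 0.32 to 0.56 over the 6 alveolar macrophage libraries and 0.69 to 0.83 over the 6 inflammatory DC libraries. In lung CD11b DCs it was 0.08 to 0.11 in WT and 0.45 to 0.725 in KO, with no overlap, while WT (0.32 to 0.48) and KO (0.40 to 0.56) of alveolar macrophages overlapped. These class levels are descriptions, and no test was made on them.

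**Figure D2:**
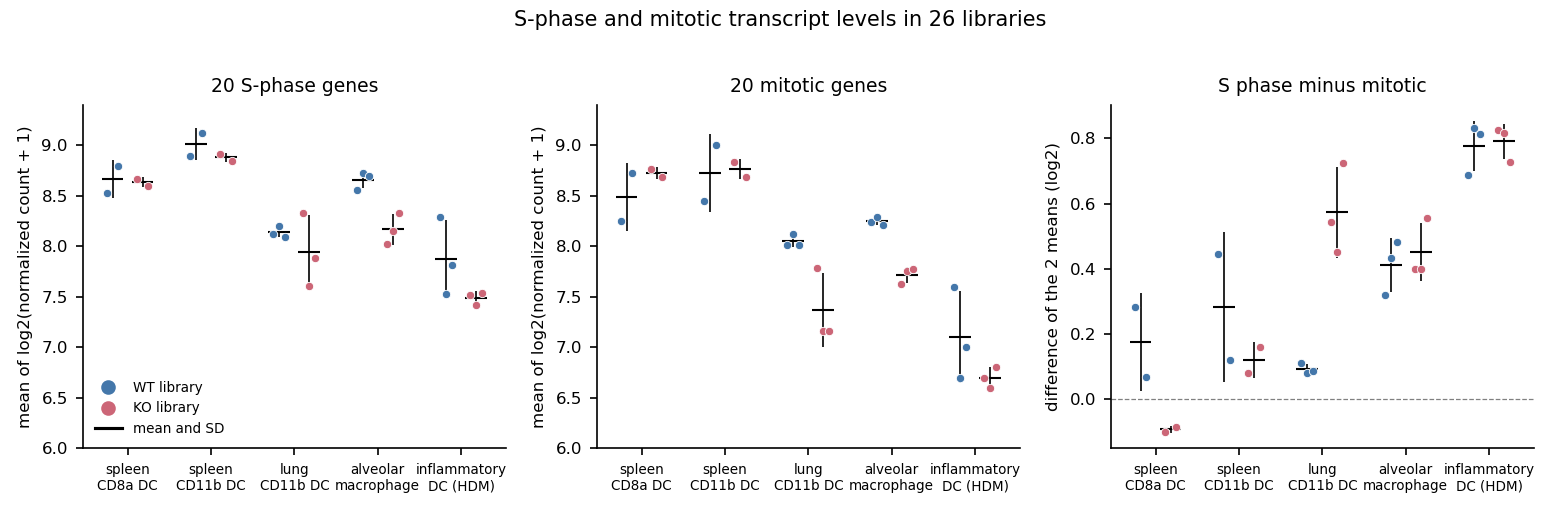
S-phase level, mitotic level and their difference (y axes, log2 of normalized counts + 1, mean over 20 genes each) for every library by group, with group mean and SD. The difference sits at 0.08 to 0.11 in WT lung CD11b DCs and at 0.45 to 0.725 in KO, and at 0.69 or above in all inflammatory DC libraries.

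Single genes followed the class levels with exceptions. Mki67, the antigen carried by cycling cells, had normalized counts of 2279 to 3356 in spleen DCs, 2019, 1753 and 1832 in WT lung CD11b DCs, 1994, 1906 and 1933 in WT alveolar macrophages and 893, 614 and 824.5 in WT inflammatory DCs. WT lung CD11b DCs and WT alveolar macrophages overlapped, and every inflammatory DC library lay below every other WT library. Top2a, the topoisomerase that untangles sister chromatids, ran from 305 to 713 in inflammatory DCs to 1279.6 to 2422 in spleen DCs. Pcna, the replication clamp, spanned a narrower range, 507 to 801 in inflammatory DCs and 789 to 1327 in spleen DCs. Between the highest and the lowest group mean the ratio was 2.37 for Pcna, 4.47 for Rrm2, 5.25 for Mki67, 6.19 for Top2a and 8.24 for Cenpf.

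Bub1b, a spindle checkpoint kinase-like protein, stood apart from its class. Its normalized counts were 1049.6, 1098 and 1077 in WT alveolar macrophages and 388, 217 and 421 in WT lung CD11b DCs, without overlap, while those of its partner Bub1 were 199.9, 170.0 and 157 in the former against 123.5, 167 and 104 in the latter, which overlapped. Per kilobase of exon, Bub1b reached 251.4 in WT alveolar macrophages against 193.3 for Mki67 and 40.4 for Bub1. In WT lung CD11b DCs the order was reversed, with 185.7 for Mki67 and 80.0 for Bub1b. Hells, a chromatin remodeller of S phase, was highest in spleen CD8a DCs (520.0 to 576) and did not exceed 317.4 elsewhere.

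Among the G1 genes the range was widest. Ccnd1 (cyclin D1) ran from a mean of 34.3 in WT alveolar macrophages to 2580.4 in WT spleen CD11b DCs, a ratio of 75.2, and Cdkn1a, the Cdk inhibitor p21, from 198.0 in KO spleen CD8a DCs to 5122.2 in KO lung CD11b DCs, a ratio of 25.9. Cdk4 was the flattest of the 49 genes, with a ratio of 1.74. Cdkn1a separated the tissues: all 8 spleen libraries held 160.2 to 430.3 normalized counts and all 18 lung libraries 2298.5 to 5999.6.

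The D-type cyclins, which bind Cdk4 and Cdk6 in G1, were compared per kilobase of exon as shares of their sum. Here and for Bub1b above, the length was that of all annotated exons of a gene together. For Ccnd1, Ccnd2 and Ccnd3 it was 4709, 9409 and 8775 bases. The shares would shift if the expressed transcripts are shorter, which was not measured. Ccnd1 made up 67.2% ± 5.4 (SD, n = 2) in WT spleen CD11b DCs, 35.8% ± 6.5 (n = 3) in WT lung CD11b DCs, 9.7% ± 2.9 (n = 3) in WT inflammatory DCs and 1.4% ± 0.4 (n = 3) in WT alveolar macrophages. Ccnd2 took the other end, with 14.2% ± 2.6 in WT spleen CD11b DCs, 36.9% ± 6.9 in WT lung CD11b DCs and 78.0% ± 2.8 in WT alveolar macrophages. In KO lung CD11b DCs its share was 64.4% ± 0.7, from 63.7% to 65.0%, above all 3 WT libraries (29.1% to 42.1%). In KO alveolar macrophages it was 86.7% ± 2.1, from 85.1% to 89.1%, again above all 3 WT libraries (75.8% to 81.1%). WT and KO inflammatory DCs overlapped, at 51.8% ± 10.6 and 59.0% ± 8.2. Exons of Ccnd1, Ccnd2 and Ccnd3 overlap exons of other genes on the opposite strand over 1100, 372 and 361 bases at most, and whether the counting used strand is not given in the sources used here. Gins2, Kif20a, Ube2c and Ccna2 likewise share 2758, 1271, 592 and 510 exon bases with Gse1, Cdc23, Tnnc2 and Exosc9 on the opposite strand.

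Differences between WT cell types were tested first, since they give the scale on which the KO effects are read. The test was limma on log2(normalized count + 1) over all 13311 genes that passed the filter, and a gene was called at an adjusted p under 0.05. Log2 differences are given with their standard error (SE). Lung CD11b DCs enter 3 of the 4 WT comparisons, which are therefore not independent.

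Lung CD11b DCs held less S-phase and mitotic RNA than spleen CD11b DCs. In this comparison 26 of the 49 genes were called, 3 higher and 23 lower, where 34.9% of all genes were called, 21.1% higher and 13.8% lower. Of the S-phase genes 12 of 20 fell and none rose, with a median log2 difference of -0.97, and of the mitotic genes 9 of 20 fell and none rose, with a median of -0.69. Over all genes tested the median was 0.005 here and between -0.049 and 0.02 in each of the other WT and KO comparisons. Pcna held 687, 590.0 and 705 normalized counts in WT lung and 1263 and 1327 in WT spleen, a difference of -0.97 ± 0.12 (SE, adjusted p = 7.97e-07). Rrm2, a subunit of ribonucleotide reductase, which makes DNA building blocks, held 448.5, 635.5 and 329.7 against 1174 and 1588, a difference of -1.58 ± 0.28 (SE, adjusted p = 0.000111). Neither gene overlapped between the tissues. Mcm2 (-1.12), Tyms, the thymidylate synthase (-1.08), Cdt1, which loads the helicase (-1.11), and Hells (-1.19) fell as well.

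The mitotic genes with the smallest p were Mki67 at -0.67 ± 0.17 (SE, adjusted p = 0.00304), the Polo kinase Plk1 at -0.99 and Top2a at -1.02. Among G1 genes Cdkn1a rose most, from 305 and 284 in spleen to 3717, 3106.5 and 2693 in lung, a difference of 3.41 ± 0.16 (SE, adjusted p = 1.2e-13). Ccnd2 (1.39) and Cdk6 (1.33) rose, and Ccnd1 (-0.91) and Cdk2 (-0.75) fell. Each WT spleen CD11b library lay above the WT lung CD11b libraries in mitotic level (8.01 to 8.12 in lung). Calls of mitotic genes depended on 1 library: WT replicate 2 of spleen CD11b DCs held a mitotic level of 9.00 against 8.45 in replicate 1. Without it 12 genes were called, 3 higher and 9 lower, and Mki67, Top2a, Plk1, Cdk1 and Ccnd1 were no longer among them. Cdk2 lost its call without spleen replicate 1 or lung replicate 1. Of the other genes of the cycle, 19 of 34 S-phase genes fell and none rose, among them the clamp loader subunit Rfc2 at -0.95 and the licensing inhibitor Gmnn at -1.02. Of 46 other G2 and mitotic genes 15 fell and 1 rose, Gas2l3 at 1.59. Of 23 other G1 genes 5 fell and 1 rose, Cdkn2d (p19) at 1.29.

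Alveolar macrophages held more RNA of the 20 listed S-phase genes than lung CD11b DCs, which other S-phase genes did not share. Of the 49 genes 15 rose and 4 fell, where 51.2% of all genes were called, 24.0% higher and 27.2% lower. The S-phase genes rose in 10 of 20 cases with none lower (median 0.48), and the mitotic genes in 4 of 20 with none lower (median 0.06). E2f1, the factor that switches on S-phase genes, held 836, 935 and 912 normalized counts in alveolar macrophages and 356, 279 and 275 in lung CD11b DCs, a difference of 1.56 ± 0.23 (SE, adjusted p = 3.13e-06). Cdt1 (1.42), Rrm2 (1.01), Rrm1 (0.75) and Pcna (0.49) rose with it. Mcm2, Mcm3, Mcm4, Ccne1 and Gins2 rose by 0.39 to 0.77 on the log2 scale, and each lost its call in at least 3 of the 6 fits that left out 1 library, all of them without alveolar macrophage replicate 2. Of the 4097 exon bases of Gins2 (median over libraries 95.5 normalized counts) 2758 overlap Gse1 (median 332.7), so its count is uncertain.

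Of the mitotic genes Bub1b at 1.71 ± 0.24 (SE, adjusted p = 3.03e-06), Ccnb1 at 0.93, Cdk1 at 0.78 and Plk1 at 0.54 rose, the last losing its call without any 1 library but lung CD11b replicate 3. Mki67 at 0.06 (adjusted p = 0.766) and Top2a at -0.05 (adjusted p = 0.883) were not called. Ccnd1 fell furthest of all 49 genes, with 28.6, 33.1 and 41.2 normalized counts in alveolar macrophages against 1181, 1179 and 1763, a difference of -5.27 ± 0.23 (SE, adjusted p = 6.09e-15). Ccnd3 (-1.07), Cdk4 (-0.40) and Cdkn1b, the inhibitor p27 (-0.70), also fell, and Cdk6 rose by 1.83. The count was 13 genes, 9 higher and 4 lower, without WT alveolar macrophage replicate 2, the fewest of the 6 libraries left out in turn. Other genes of the cycle moved both ways: 4 of 34 S-phase genes rose and 2 fell, 10 of 46 G2 and mitotic genes rose and 7 fell, and 5 of 23 G1 genes rose and 10 fell. Over all genes 24.0% were called higher and 27.2% lower, so the other S-phase genes rose no more often than all genes did. The phosphatase Cdc25b (2.93) and the lamin receptor Lbr (-3.26) stood at the ends of the mitotic list.

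Inflammatory DCs of mite-treated mice held less mitotic RNA than steady-state lung CD11b DCs. Of the 49 genes 4 rose and 25 fell, where 47.5% of all genes were called, 23.7% higher and 23.8% lower. The mitotic genes fell in 14 of 20 cases, with a median of -1.11, and Bub1b alone rose, by 1.04. Mki67 differed by -1.28 ± 0.15 (SE, adjusted p = 2.27e-07), and its libraries did not overlap. Cenpf (-1.87) and Cenpe (-1.51), which act at the kinetochore, the spindle motor Kif11 (-1.42) and Ube2c (-1.49) fell further.

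Of the 20 S-phase genes 6 were lower and 2 higher, with a median of -0.30: Mcm6 (-1.14), Mcm5 (-1.21) and the thymidine kinase Tk1 (-0.99) fell, and Cdt1 (0.95) and E2f1 (0.64) rose. E2f1 lost its call without lung CD11b replicate 2 or 3 or inflammatory replicate 1 or 3. All 3 D-type cyclins fell, with log2 differences of -4.11 for Ccnd1, -1.74 for Ccnd2 and -1.74 for Ccnd3, and so did Cdkn1b (-1.71 ± 0.20 SE, adjusted p = 2.7e-07). Other mitotic genes fell in 25 of 46 cases and rose in 5, other S-phase genes fell in 11 of 34 and rose in 1, and other G1 genes fell in 8 of 23 and rose in 4. Hmgb2 (-1.85) was among those lower, and the p53 antagonist Mdm2 (1.13) among those higher. Treatment, cell type and Y-linked reads (1419.8 to 2523.0 in inflammatory DCs, at most 1.6 in WT lung CD11b DCs) went together in this comparison and cannot be told apart. Chi3l3, on the alveolar macrophage list, was at 784487 to 1135997 normalized counts in WT inflammatory DCs and at 1083 to 3817 in WT lung CD11b DCs. In WT alveolar macrophages Chi3l3 was lower than in WT inflammatory DCs, at 267928 to 277962, and its part in the result was not tested.

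Between the 2 WT spleen DC types 10 genes were called. Of the 49 genes 1 was higher and 9 were lower in CD8a than in CD11b DCs, where 23.0% of all genes were called, 12.2% higher and 10.8% lower. E2f2 held 158.5 and 174 normalized counts in WT CD8a DCs and 501 and 466 in WT CD11b DCs, a difference of -1.53 ± 0.25 (SE, adjusted p = 6.21e-05). Ccnd1 (-1.51 ± 0.28 SE, adjusted p = 0.000329), Ccnd2 (-1.14), Cenpe (-0.99), Ccne1 (-1.06), Nusap1 (-0.89), Mcm4 (-0.69), Cdkn1a (-0.50) and Pcna (-0.39) fell too, and Hells rose by 0.99. With 2 libraries per group most of these calls rested on single libraries: 4 remained in number without CD8a replicate 1, CD11b replicate 1 or CD11b replicate 2. Of these 10 genes E2f2 and Ccnd1 kept their call whichever library was left out. Fitted on the 4 WT spleen libraries alone, E2f2 was the 1 gene called, and Ccnd1 was not (adjusted p = 0.0642). Other S-phase genes were lower in 4 of 34 cases and other G1 genes in 5 of 23 with 2 higher, and of 46 other mitotic genes 2 were higher and 1 lower. Macrophage genes moved with the comparison, 12 of 14 on the red pulp list higher in CD8a DCs, with a summed level of 35789 to 60540 against 11612 to 15003, and their part in it was not tested.

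**Figure D3:**
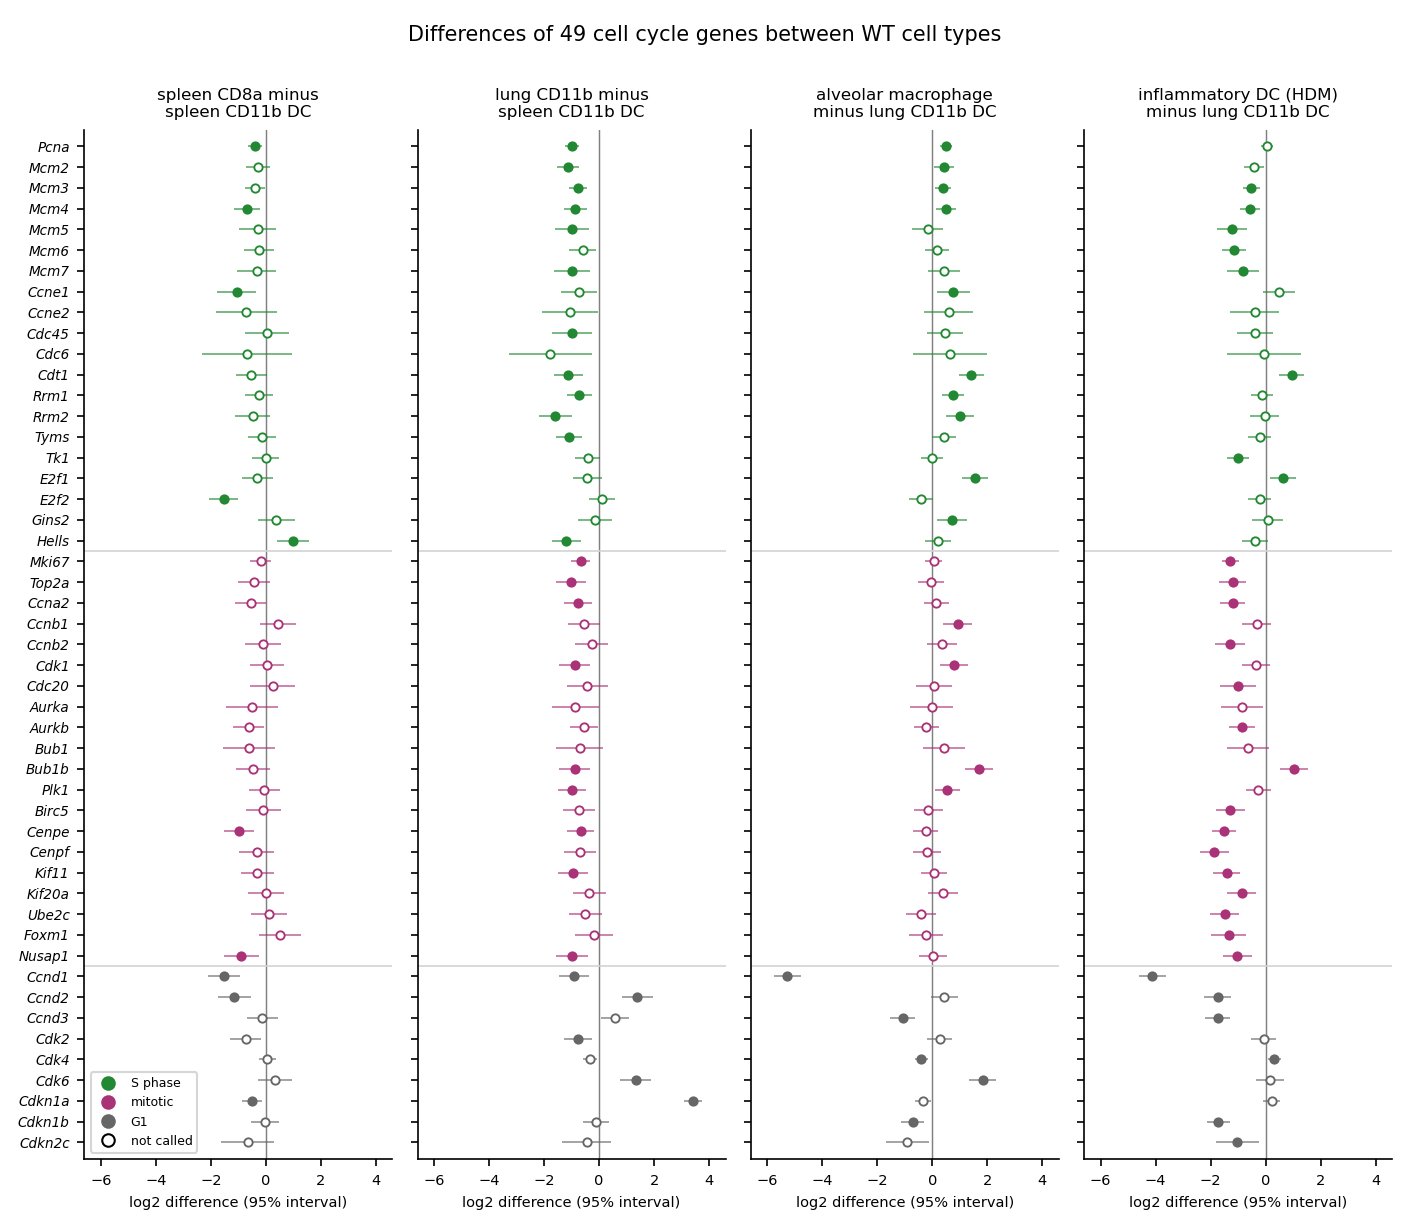
Log2 differences of the 49 genes in the 4 WT comparisons (x axis, log2 of normalized counts + 1) with the 95% interval of the limma fit, 1 row per gene by class, and filled points where the gene was called. S-phase genes lie mostly below 0 for lung against spleen CD11b DCs (median -0.97) and above 0 for alveolar macrophages against lung CD11b DCs (median 0.48), and mitotic genes lie below 0 for inflammatory against lung CD11b DCs (median -1.11).

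In KO lung CD11b DCs mitotic genes were lower and G1 genes differed both ways. With all libraries fitted, S-phase genes were called lower about as often as all genes were. Of the 49 genes 18 were called, 4 higher and 14 lower, where 26.1% of all genes were called, 12.0% higher and 14.0% lower. The mitotic class fell in 9 of 20 genes, rose in none and had a negative estimate in all 20, with a median of -0.63. The S-phase class fell in 3 of 20, rose in 1 and had a negative estimate in 13, with a median of -0.19. The difference between the 2 classes was not tested, and without KO replicate 1 the counts were 12 mitotic and 9 S-phase genes lower. Every KO library lay below every WT library for 10 mitotic genes and 1 S-phase gene, where this held for 15.0% of all genes. The reverse held for Tyms of the S-phase genes and for 3 G1 genes, against 13.6% of all genes.

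Foxm1, the transcription factor of the mitotic programme (chromosome 6, 128362967 to 128376146, plus strand, GRCm38), changed most. Its normalized counts were 242, 246 and 184 in WT and 136, 43.5 and 42.5 in KO, a difference of -1.80 ± 0.30 (SE, adjusted p = 0.000117). All KO libraries lay below all WT libraries, with KO replicate 1 above the other 2 KO libraries. Mki67 (chromosome 7, 135689784 to 135716361, minus strand) held 2019, 1753 and 1832 in WT and 1400.1, 847 and 1144 in KO, a difference of -0.75 ± 0.15 (SE, adjusted p = 0.000639) with no overlap. Aurkb, the Aurora kinase of the chromosomal passenger complex, held 269, 269.6 and 321 in WT and 201, 102 and 134 in KO, again without overlap (-1.02 ± 0.22 SE, adjusted p = 0.00163). Its partner Birc5 (survivin) differed by -0.77 ± 0.25 (SE, adjusted p = 0.0268).

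Cdc20, Ube2c and Cenpf fell as well. Cdc20, the activator of the anaphase-promoting complex, held 135, 138.5 and 164 normalized counts in WT and 110.5, 59.1 and 43.2 in KO (-1.13 ± 0.32 SE, adjusted p = 0.0104). Ube2c, the ubiquitin-conjugating enzyme of that complex, held 313, 252 and 262 in WT against 162, 134 and 156 in KO (-0.87 ± 0.26 SE, adjusted p = 0.0164), and the kinetochore protein gene Cenpf 247, 319 and 197 in WT against 154, 131 and 139 in KO (-0.82 ± 0.25 SE, adjusted p = 0.02). In these 3 genes, whose promoters are printed above, no KO library reached a WT library. Bub1b (-0.67) and Ccna2 (-0.59) completed the 9. Cdk1, the mitotic kinase (-0.46, adjusted p = 0.175), Ccnb2 (-0.38, adjusted p = 0.301) and Top2a (-0.40, adjusted p = 0.217) were not called, although no KO library of Ccnb2 reached a WT library.

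Of the S-phase genes Tk1 differed by -0.68 ± 0.20 (SE, adjusted p = 0.0132), with 251, 251 and 270.1 normalized counts in WT and 199, 139 and 150.4 in KO. E2f2 (-0.65) and the helicase cofactor Cdc45 (-0.94) fell, and Cdt1 rose by 0.66 (147, 123 and 151 in WT, 204, 144 and 370.3 in KO). WT and KO overlapped in the last 3, and the KO mean of Cdt1 owed most to replicate 3. Pcna (0.10, adjusted p = 0.513), Mcm5 (-0.65, 0.0789), Rrm2 (-0.27, 0.463) and Tyms (0.34, 0.231) were not called. The helicase genes split within the KO group: Mcm2 to Mcm7 were highest of the 3 KO libraries in replicate 1, as with Mcm6 at 1819, 865 and 928 against 1435, 1435 and 1564 in WT. Cdc6, a helicase loader, varied even more in KO, at 93.0, 9.0 and 184.

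The G1 genes showed the largest rises. Ccnd2 (chromosome 6, 127125162 to 127152193, minus strand) held 3193, 2808 and 2372.5 normalized counts in WT and 7436, 7373 and 5941 in KO, a difference of 1.31 ± 0.24 (SE, adjusted p = 0.00028). Cdkn1a (chromosome 17, 29090976 to 29100727, plus strand) held 3717, 3106.5 and 2693 in WT against 4450.2, 5999.6 and 4917 in KO (0.69 ± 0.14 SE, adjusted p = 0.00104), and Cdk6 109, 154 and 79.8 in WT against 225, 208.5 and 179 in KO (0.87 ± 0.24 SE, adjusted p = 0.0102). In all 3 every KO library exceeded every WT library. The inhibitors Cdkn1b (-0.59 ± 0.20 SE, adjusted p = 0.034) and Cdkn2c, p18 (-1.15 ± 0.38 SE, adjusted p = 0.0287), fell, also without overlap. Ccnd1 (-0.26, adjusted p = 0.444) and Ccnd3 (-0.45, adjusted p = 0.138) were not called.

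Calls in lung CD11b DCs depended on the KO libraries. Without KO replicate 1, whose S-phase level was 8.33 against 7.61 and 7.88 in the other 2, 29 genes were called, 4 higher and 25 lower, the latter 12 mitotic, 9 S-phase and 4 G1 genes. Without KO replicate 2 there were 8, and without KO replicate 3 there were 10; without WT replicate 1, 2 or 3 there were 12, 13 and 13. Over these 6 fits the mitotic median stayed between -0.84 and -0.54, while the S-phase median ran from -0.43 without KO replicate 1 to 0.03 without KO replicate 3. Foxm1, Mki67, Aurkb, Ccnd2 and Cdkn1a kept their call in all 6, with a highest adjusted p of 0.00143, 0.00698, 0.0156, 0.00235 and 0.0104. The other 13 lost it in at least 1: Cdc20 (adjusted p = 0.0708 without KO replicate 3), Cdk6 (0.0641 without WT replicate 3) and Tk1 (0.0616 without KO replicate 2) in 1 each, and the remainder in 2 to 5. Fitted on the 6 lung CD11b libraries alone, 2 genes were called, Ccnd2 and Ube2c, where 6.43% of all genes were, and Foxm1 (adjusted p = 0.0956), Mki67 (0.078), Aurkb (0.0921) and Cdkn1a (0.0678) were not.

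Genes of the cycle outside the 49 are read against the 14.0% of all genes called lower and 12.0% called higher in lung CD11b DCs. Of 46 other G2 and mitotic genes 11 fell and 3 rose (median -0.42), with Kif23, a motor of cytokinesis (-1.27), the checkpoint kinase Ttk (-3.54), the condensin subunit Ncapd2 (-1.68) and Lbr (-0.92) lower. Ttk held 57.4, 97.3 and 52.4 normalized counts in WT and 7.8, 12.3 and 0.7 in KO. Of 34 other S-phase genes 3 fell and 1 rose (median -0.24), with Dtl (-1.39) and Rpa2 (-0.87) among those lower and Ubr7 (0.45) higher. Of 23 other G1 genes 5 fell, among them the antiproliferative Btg2 (-1.13), Cdkn2d (-0.94) and Rb1 (-0.47), and 2 rose, among them Mdm2 (0.91).

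Markers of cell identity moved with these genes. On the conventional DC list 7 of 17 genes fell and 2 rose. The summed level, most of it Cd74, H2-Aa and H2-Ab1, was 852808 to 992146 in WT and 524061 to 594288 in KO. Itgax on this list was at 6281, 6627.5 and 4873 in WT and 13711, 12801 and 14656.5 in KO. Flt3, the receptor of DC growth factor, was at 3066, 3053 and 1844 in WT and 1071, 598 and 216.5 in KO. On the monocyte list 2 of 8 rose and 1 fell, with Ly6c2 at 58.5, 53.9 and 176.5 in WT and 2569, 3659 and 3398 in KO, while the summed level was 36390 to 39040 in WT and 24868 to 31190 in KO. On the alveolar macrophage list 5 of 11 fell and 1 rose, with a summed level of 4582 to 8409 in WT and 3651 to 4963 in KO, and on the red pulp macrophage list 5 of 14 rose and 2 fell. WT replicate 3 and KO replicates 2 and 3 held the fewest genes above 0 of all libraries (12992 to 13173). With a term for these 3 libraries, an alternative chosen after the data were seen, 10 of the 49 genes were called. The part of cell identity and of library quality in the result was not tested.

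In KO alveolar macrophages S-phase genes of the 49, led by the helicase, and mitotic genes were lower. Of the 49 genes 10 were called, 1 higher and 9 lower, where 16.9% of all genes were called, 10.5% higher and 6.39% lower. The S-phase class fell in 6 of 20 genes and rose in none (median -0.52), with a negative estimate in 19. The mitotic class fell in 2 of 20 and rose in none (median -0.54), with a negative estimate in 20. Every KO library lay below every WT library for 14 S-phase and 16 mitotic genes, where this held for 21.5% of all genes. The reverse held for 3 G1 genes alone, against 23.1% of all genes.

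The helicase genes led the S-phase class. Mcm3 held 1211, 1309 and 1323 normalized counts in WT and 699.9, 732 and 755 in KO, a difference of -0.81 ± 0.15 (SE, adjusted p = 0.000301). Mcm2 held 587, 662 and 670.0 in WT against 332, 346 and 440.3 in KO (-0.79 ± 0.17 SE, adjusted p = 0.00221), and Mcm6 1481, 1763 and 1766 in WT against 776, 930.1 and 1041 in KO (-0.87 ± 0.21 SE, adjusted p = 0.00521). The WT libraries lay close together in each of the 3 genes, and all KO libraries lay below them. Mcm4 fell (-0.65), and Mcm5 (-0.68, adjusted p = 0.0897) and Mcm7 (-0.67, adjusted p = 0.113) were not called, though neither overlapped. E2f2 (-0.83 ± 0.20 SE, adjusted p = 0.00524) and Tk1 (-0.66 ± 0.20 SE, adjusted p = 0.0196) fell, and Rrm2 (-0.42, adjusted p = 0.31), Tyms (-0.35, 0.291) and Pcna (-0.07, 0.77) were not called.

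Mki67 held 1994, 1906 and 1933 normalized counts in WT alveolar macrophages and 1143, 1154 and 1258 in KO, a difference of -0.71 ± 0.15 (SE, adjusted p = 0.00122). Ccna2 (cyclin A2) held 363, 389.6 and 353 in WT against 175, 219 and 221 in KO (-0.85 ± 0.22 SE, adjusted p = 0.00781). Neither overlapped. Kif11 (-0.68, adjusted p = 0.0501) and Top2a (-0.67, adjusted p = 0.0502) lay just outside the threshold, and Ccnb2 (-0.65, 0.0968), Cdk1 (-0.36, 0.375) and Foxm1 (-0.70, 0.13) farther out. Bub1b, high in these cells, held 1049.6, 1098 and 1077 in WT and 1164.5, 1012 and 1035 in KO and overlapped.

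Of the G1 kinases one rose and one fell. Cdk4 (chromosome 10, 127063534 to 127067920, plus strand) held 738, 696.5 and 725 normalized counts in WT and 1133.5, 1139.8 and 1038 in KO (0.61 ± 0.12 SE, adjusted p = 0.000439), and Cdk6 (chromosome 5, 3341485 to 3531008, plus strand) held 365.5, 385 and 437 in WT against 160.2, 165 and 221 in KO (-1.13 ± 0.24 SE, adjusted p = 0.00165). Neither overlapped between genotypes. Exons of Cdk4 overlap those of Tspan31 on the opposite strand over 641 bases, so its count is uncertain to that extent. Ccnd2 (0.63, adjusted p = 0.0755), Cdkn1a (0.32, 0.143) and Cdkn1b (-0.54, 0.0733) did not overlap either but were not called. Ccnd1 (0.52, 0.139), Ccnd3 (-0.34, 0.368) and Cdkn2c (0.11, 0.917) were not called.

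The calls in alveolar macrophages moved little with single libraries, 8 to 10 in number. Mcm4 lost its call without WT or KO replicate 2 and Tk1 without WT replicate 2, KO replicate 1 or KO replicate 2, and the other 8 kept theirs. Fitted on the 6 alveolar macrophage libraries alone 29 genes were called, 12 of S phase and 13 mitotic genes lower among them, where 29.0% of all genes were called. With all libraries fitted, 6.39% of all genes were called lower and 10.5% higher. Of other genes of the cycle 2 of 34 S-phase genes fell, among them Pola1 (-0.57), no larger a share than over all genes. Of 46 other mitotic genes 6 fell, among them Hjurp (-1.43), Spc24 (-1.25), Kif23 (-0.77) and Hn1 (-0.32), and 1 rose. Of 23 other G1 genes 4 rose and 2 fell, with Btg1, an antiproliferative gene (0.88), and Mdm2 (0.46) higher and Rbl1, p107 (-0.79), and Btg2 (-0.82) lower.

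All 7 tested genes of the T cell list were called higher in KO alveolar macrophages, with a summed level of 23.2 to 36.5 in WT and 1821 to 2101 in KO, most of it Il7r (20.6, 12.1 and 17.3 in WT, 1721, 1942 and 1749 in KO). Cd3e, which defines T cells, was at 3.4, 4.4 and 6.5 in WT against 13.3, 28.7 and 38.4 in KO. The alveolar macrophage list summed to 319849 to 330432.5 in WT and 193410 to 212552 in KO, most of it Chi3l3, with 3 of 11 genes lower and 1 higher. Their part in the differences was not tested. Y-linked reads were at most 2.3 in the 3 WT libraries and 659.5 to 2135.8 in the 3 KO libraries, so genotype and what sets the Y-linked reads cannot be told apart here.

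In inflammatory DCs 2 of the 49 genes were called, both lower, where 3.37% of all genes were called, 1.45% higher and 1.92% lower. E2f2 held 588.5, 390.0 and 405 normalized counts in WT and 219, 288 and 239 in KO, a difference of -0.87 ± 0.20 (SE, adjusted p = 0.0168). Mcm2 held 421, 283 and 372 in WT against 247, 215 and 217.5 in KO (-0.65 ± 0.17 SE, adjusted p = 0.0412). Neither overlapped between genotypes. All 20 S-phase genes had a negative estimate (median -0.30) and 18 of 20 mitotic genes did (median -0.40), with none of the latter called. Every KO library lay below every WT library for 4 S-phase, 1 mitotic and 2 G1 genes, where this held for 11.1% of all genes, and for no gene of the 49 was it the reverse, which held for 9.83%.

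WT replicate 1 stood above the other libraries. Its S-phase level was 8.29 against 7.53 and 7.81 in the other 2 WT libraries and 7.42 to 7.53 in KO, and it alone of the 6 held Xist (717.5, at most 5.8 in the others). Without it limma called none of the 49, and the medians were -0.16 for S phase and -0.18 for mitosis. Without WT replicate 2 there were 5 calls, without WT replicate 3, KO replicate 1 or KO replicate 2 there was 1 each, and without KO replicate 3 there were 0. Fitted on the 6 inflammatory DC libraries alone none was called (E2f2 adjusted p = 0.139, Mcm2 0.167).

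Markers of alveolar macrophages moved with these genes. On that list 4 of 11 genes fell and none rose. The summed level, most of it Chi3l3, was 818984 to 1190155 in WT and 431787 to 1051727 in KO. Krt79 held 3605, 956 and 1741 normalized counts in WT and 184, 84.9 and 241 in KO, and Marco 366, 82.8 and 207 in WT and 44.0, 39.8 and 79.2 in KO. Car4, which was not called, held 12601, 2937 and 4539 in WT and 2809, 1547 and 2378 in KO. WT replicate 1, the first value of each WT set, was the highest of the 6 libraries in all 3 markers, as it was in S-phase and mitotic level. Of the rest of the list all but Fabp4 and Siglec5 were highest there too. Fabp4 was at 784, 1124 and 627 in WT and 230, 96.8 and 99.3 in KO. Siglec5 was at 708, 357 and 468 in WT and 607, 564 and 1012 in KO. On the conventional DC list 5 of 17 genes fell and 3 rose. The part of these cells in the result was not tested.

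Among the genes not called, Nusap1 (-0.80, adjusted p = 0.0888), Tk1 (-0.60, 0.104), Pcna (-0.32, 0.11), Ccnd3 (-0.63, 0.143), Hells (-0.59, 0.198), Bub1 (-0.95, 0.202) and Kif11 (-0.60, 0.21) came next in order of p. Mki67 (-0.32, 0.332), Cdkn1a (-0.36, 0.216), Ccnb1 (-0.58, 0.287) and Rrm2 (-0.54, 0.343) were not called either. Nor were Top2a (-0.40, 0.499), Ccnb2 (-0.40, 0.568), Cdk1 (-0.27, 0.744), Mcm5 (-0.46, 0.499) and Tyms (-0.25, 0.71). Of the G1 genes Ccnd1 (0.35, 0.579), Ccnd2 (0.06, 0.968), Cdkn1b (0.06, 0.957) and Cdkn2c (-0.76, 0.392) were not called. Of the other genes of the cycle Slbp (-0.44), the histone messenger binding protein, fell and Btg1 (0.65) rose, 1 of 34 and 1 of 23, and none of 46 mitotic genes was called.

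In the spleen none of the 49 genes was called by limma in either DC type. In CD8a DCs 5.13% of all genes were called, 1.50% higher and 3.63% lower, and 3 of the 49 had an unadjusted p under 0.05. Ccne1, cyclin E1, held 77.9 and 42.6 normalized counts in WT and 107 and 134.5 in KO (1.04 ± 0.35 SE, adjusted p = 0.0888, 95% interval 0.32 to 1.77). Cdk6 differed by 0.80 (adjusted p = 0.139) and Nusap1 by 0.72 (0.211), both without overlap. The S-phase median was -0.09 and the mitotic median 0.22. Both KO libraries lay below both WT libraries for 5 S-phase, 2 mitotic and 1 G1 genes (23.6% of all genes) and above them for 2, 6 and 4 (23.1% of all genes). With edgeR and with DESeq2 on the recovered reads the count was 0, and without WT replicate 1 it was 1. The intervals for Mki67 (-0.42 to 0.34) and Pcna (-0.51 to 0.03) show what sizes of change the fit leaves possible. Their width comes from the spread shared over all 26 libraries, not from these 4 alone. Estimates for other uncalled genes were 0.26 for Top2a, 0.23 for Ccnb2, 0.45 for Cdk1, -0.14 for Mcm5, -0.09 for Rrm2 and -0.33 for Tyms, and among G1 genes -0.20 for Ccnd1, 0.11 for Ccnd2, 0.28 for Ccnd3, -0.07 for Cdkn1a, 0.25 for Cdkn1b and 0.55 for Cdkn2c, with adjusted p from 0.494 (Cdk1) to 0.954 (Rrm2). Of the other genes Gmnn fell (-0.70) and Tmpo rose (0.48). Genes of red pulp macrophages moved with this comparison, 13 of 14 lower in KO with a summed level of 35789 to 60540 in WT and 4867 to 5095 in KO, and their part was not tested.

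In spleen CD11b DCs 1.52% of all genes were called, 1.28% higher and 0.233% lower, and 4 of the 49 had an unadjusted p under 0.05. Cdk6 held 34.1 and 55.0 normalized counts in WT and 99.6 and 90.3 in KO (1.11 ± 0.30 SE, adjusted p = 0.0623, 95% interval 0.50 to 1.73). Cdkn1a (0.49, adjusted p = 0.198), Ccnd1 (-0.66, 0.323) and Pcna (-0.28, 0.365) followed, all without overlap. The S-phase median was -0.11 and the mitotic median 0.00. Both KO libraries lay below both WT libraries for 8 S-phase, 1 mitotic and 2 G1 genes (23.5% of all genes) and above them for 2, 1 and 4 (24.5% of all genes). The count was 0 with edgeR and 1 with DESeq2. Mki67 held 2609 and 3356 in WT and 3305 and 3148 in KO, and the interval of its difference was -0.25 to 0.50. Estimates for other uncalled genes were -0.07 for Top2a, 0.05 for Ccnb2, -0.12 for Cdk1, -0.10 for Mcm5, -0.32 for Rrm2 and -0.18 for Tyms, and among G1 genes 0.14 for Ccnd2, 0.11 for Ccnd3, -0.08 for Cdkn1b and 0.29 for Cdkn2c, each with an adjusted p of at least 0.804 (Rrm2). Gas2l3 rose by 1.13 among the other mitotic genes, and no other gene of the 3 lists was called.

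**Figure D4:**
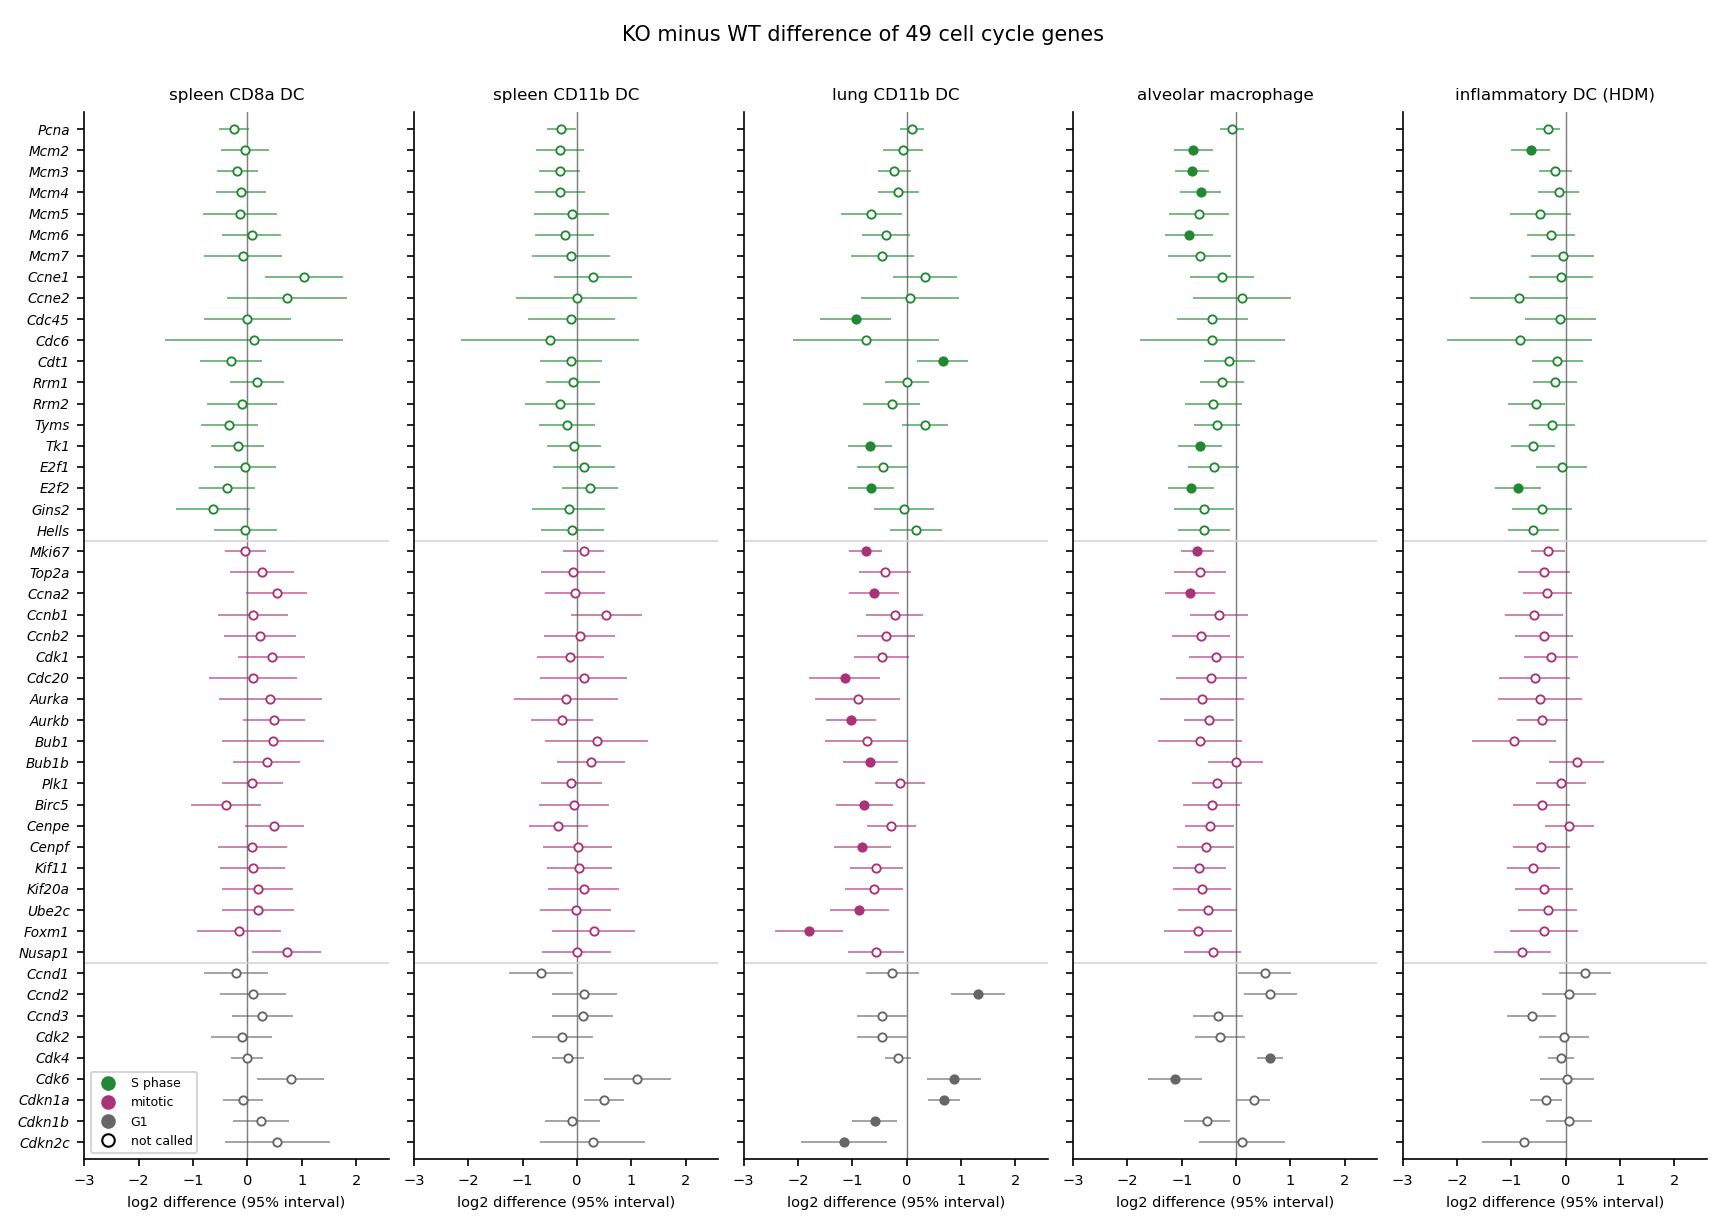
Log2 differences between KO and WT (x axis, log2 of normalized counts + 1) of the 49 genes in the 5 cell types, with the 95% interval of the limma fit, 1 row per gene by class, and filled points where the gene was called. In lung CD11b DCs all 20 mitotic genes lie below 0 (median -0.63) and in alveolar macrophages 19 S-phase and 20 mitotic genes have a negative estimate, Bub1b close to 0, while both spleen columns scatter around 0.

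Whether KO effects differed between cell types was tested directly, as a difference of differences in the same limma fit. Between lung and spleen CD11b DCs 3 of the 49 genes were called, where 12.5% of all genes were (5.86% higher, 6.60% lower): Foxm1 at -2.10 ± 0.48 (SE, adjusted p = 0.00574), Mki67 at -0.88 ± 0.24 (SE, adjusted p = 0.0164) and Ccnd2 at 1.17 ± 0.38 (SE, adjusted p = 0.0435). For Foxm1 the KO difference was -1.80 in lung and 0.31 in spleen, for Mki67 -0.75 and 0.12, and for Ccnd2 1.31 and 0.14. Foxm1 kept its call whichever of the 10 libraries was left out but lost it in the fit on these 10 libraries alone (adjusted p = 0.131), as did Mki67 (0.133). Mki67 lost it without spleen CD11b WT or KO replicate 1 (highest adjusted p = 0.0993), and Ccnd2 without 8 of the 10 (highest adjusted p = 0.149). The count of calls was 7 without lung KO replicate 1, and 1 without spleen WT replicate 1 or spleen KO replicate 1.

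Between alveolar macrophages and lung CD11b DCs 3 genes were called, where 16.8% of all genes were (10.2% higher, 6.60% lower). Cdk6 rose in KO lung CD11b DCs (0.87) and fell in KO alveolar macrophages (-1.13), a difference of -2.00 ± 0.34 (SE, adjusted p = 0.000275). Cdk4 rose in alveolar macrophages (0.61) and had an estimate of -0.16 in lung CD11b DCs (0.77 ± 0.16 SE, adjusted p = 0.00185). Both kept their call whichever of the 12 libraries was left out. Mcm2 (-0.72 ± 0.25 SE, adjusted p = 0.0482) lost it without 9 of the 12 (highest adjusted p = 0.121) and in the fit on these 12 libraries alone (0.0946). The count was 5 without lung KO replicate 1 or lung KO replicate 2.

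Between inflammatory and lung CD11b DCs 3 genes were called, where 13.0% of all genes were (6.08% higher, 6.95% lower). Cdkn1a rose in KO lung CD11b DCs (0.69) and had an estimate of -0.36 in inflammatory DCs (-1.06 ± 0.20 SE, adjusted p = 0.00125), a call that held whichever of the 12 libraries was left out. Ccnd2 (-1.25 ± 0.34 SE, adjusted p = 0.0165) lost its call without inflammatory WT replicate 1 or KO replicate 2, and Foxm1 (1.40 ± 0.43 SE, adjusted p = 0.0333) without 8 of the 12. In the fit on these 12 libraries alone Cdkn1a was called, and Ccnd2 (adjusted p = 0.131) and Foxm1 (0.177) were not. The count was 8 without lung KO replicate 1. Between the 2 spleen DC types none of the 49 was called by limma, edgeR or DESeq2, 2 had an unadjusted p under 0.05, Cdkn1a (-0.57, 0.388) and Cenpe (0.84, 0.397), and 2.45% of all genes were called, 0.195% higher and 2.25% lower. The 3 comparisons with lung CD11b DCs share those 6 libraries.

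**Figure D5:**
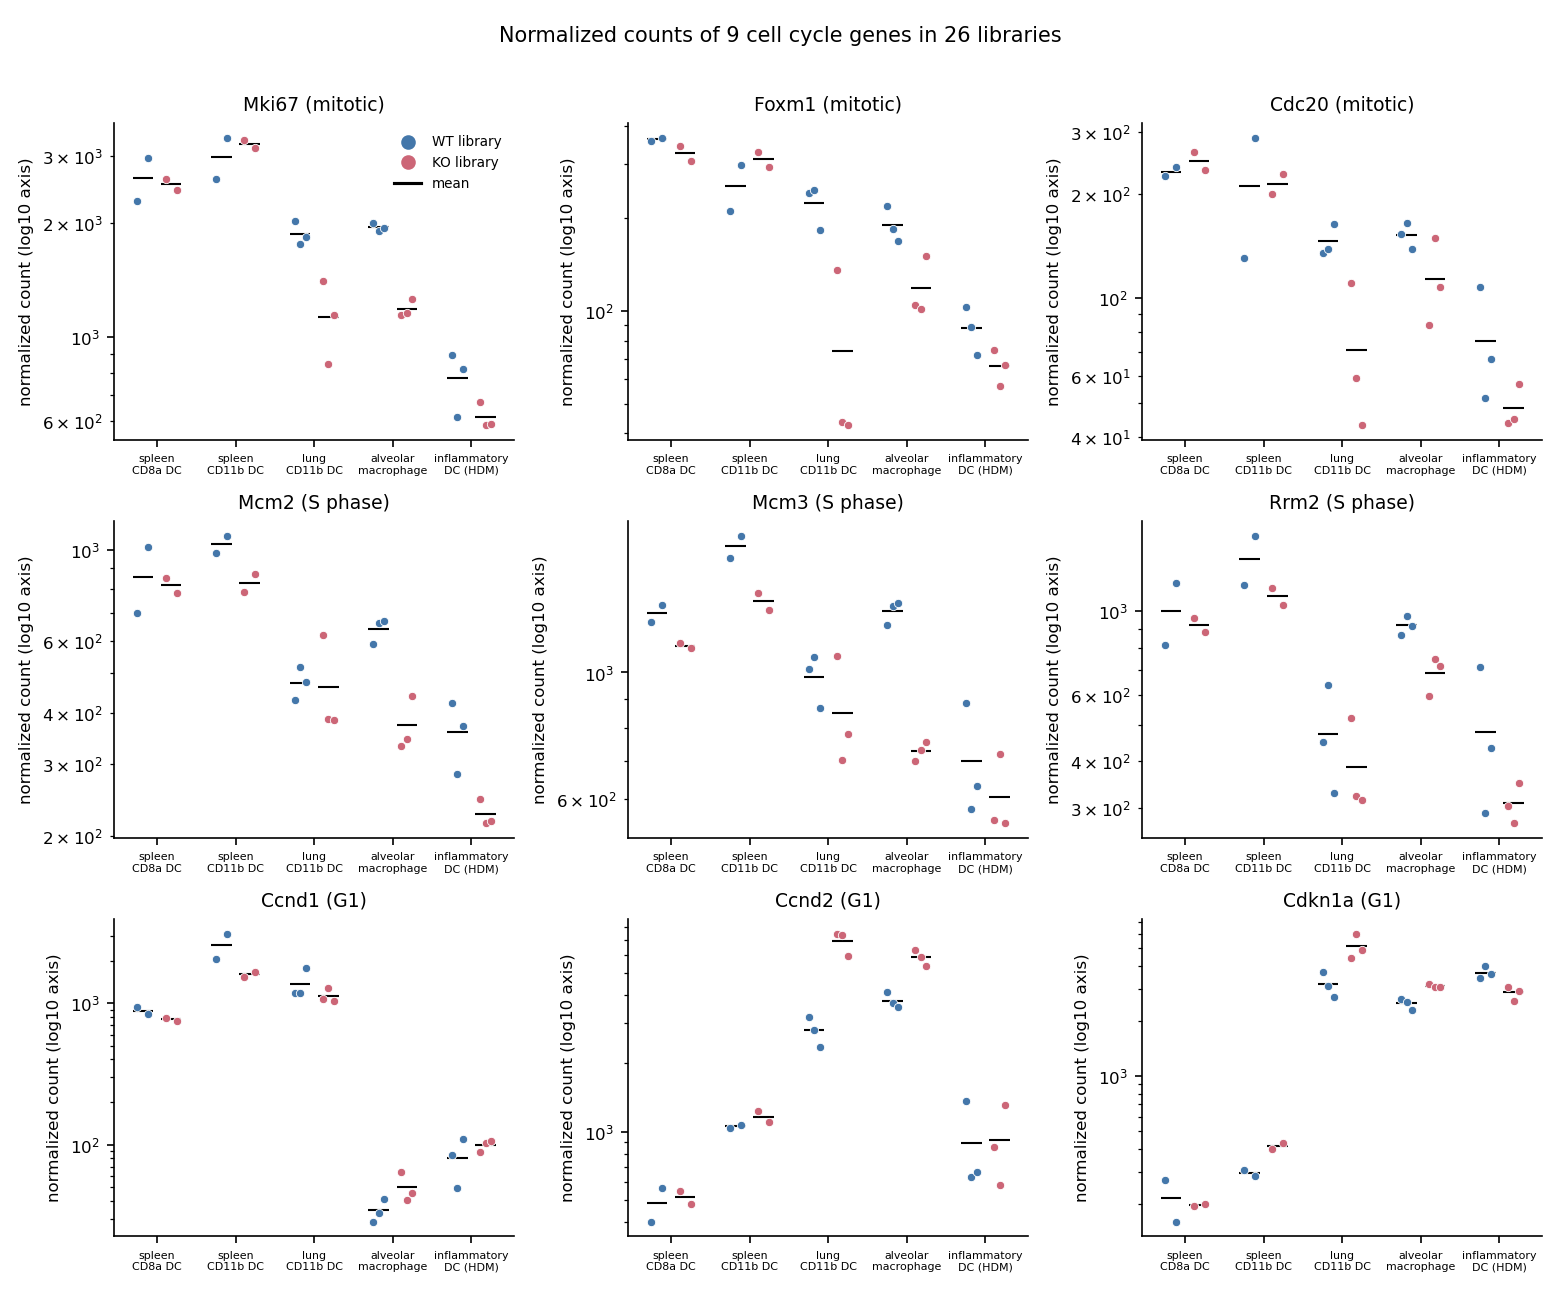
Normalized counts of 9 genes in every library (y axes, log10 scale) by group, with bars at the group mean. Foxm1, Mki67 and Cdc20 are lower in all KO than in all WT lung CD11b DC libraries, Mcm2 and Mcm3 in all KO than in all WT alveolar macrophage libraries, and Ccnd1 is at 28.6 to 64.6 in alveolar macrophages against 1527 to 3095 in spleen CD11b DCs.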

How the data were processed

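RNA of sorted cells (RNeasy Micro, amplified with a Clontech kit, NexteraXT libraries, per the labels' protocols) was sequenced in 26 libraries. The deposited values are a signal: read counts per gene that the authors had divided by a size factor per library, with STAR 2.3.1s, HTSeq, DESeq2 1.10.1 and mm10 named in the submitters' processing notes. The annotation, the HTSeq version and the strand setting are not given in the sources used here. Whole reads were recovered from the steps between values in 100% of cases within 1e-06, which gave totals of 7366907 to 14145027 reads per library.

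Of 23420 symbols, 13311 with a normalized count of at least 10 in at least 2 libraries were tested. limma 3.58.1 (R 4.3.3) was fitted to log2(normalized count + 1) with 1 mean per group over all 26 libraries, which share 1 estimate of spread, a trend in variance and Benjamini-Hochberg adjustment per comparison, and calls were made at an adjusted p under 0.05. The scale understates fold changes of low genes. The comparisons were KO against WT in 5 cell types, 4 pairs of WT cell types and 4 differences between KO effects. The fit was tested on simulated data. Alternatives were pseudocounts of 0.25 and 8, no filter, TMM scaling, edgeR 4.0.16 and DESeq2 1.42.0 on the recovered reads, fits on the compared libraries alone, each library left out and, added after the data were seen, a term for the 3 lung libraries with the fewest genes.

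The genes, gene lists and tests were chosen with earlier results of these data known. Named by rule were Mki67, Top2a, Ccnb2, Cdk1, Pcna, Mcm5, Rrm2, Tyms, the D-type cyclins, Cdkn1a, Cdkn1b and Cdkn2c (uncalled values of these are given in the 5 KO comparisons but not in every WT comparison or difference of KO effects), up to 12 called genes per comparison (or the 12 with the smallest p), and up to 4 called genes of each other list. A gene that the last of these would name is not reported here. Members named beyond these, Bub1b and Foxm1 in alveolar macrophages among them, were chosen after their values were seen. Promoter windows and gene positions are from RefSeq GRCm38.p6 and from GENCODE on the same assembly.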

Additional observations from a re-analysis of the deposited data

Results flagged for a closer look

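In 9 cases the KO effect on a gene differed between 2 cell types by limma's test of the difference itself, 3 of the 49 genes in each of 3 comparisons. The share of all genes called was 12.5% for lung against spleen CD11b DCs, 16.8% for alveolar macrophages against lung CD11b DCs and 13.0% for inflammatory against lung CD11b DCs. Between lung and spleen CD11b DCs the log2 KO effect of Foxm1 differed by -2.1 (adjusted p = 0.00574), that of Mki67 by -0.88 (0.0164) and that of Ccnd2 by 1.17 (0.0435). Between alveolar macrophages and lung CD11b DCs Cdk6 differed by -2.0 (adjusted p = 0.000275), Cdk4 by 0.77 (0.00185) and Mcm2 by -0.72 (0.0482). Between inflammatory and lung CD11b DCs Cdkn1a differed by -1.06 (adjusted p = 0.00125), Ccnd2 by -1.25 (0.0165) and Foxm1 by 1.4 (0.0333). All 9 share the lung CD11b DC libraries. Foxm1 against spleen, Cdk6, Cdk4 and Cdkn1a kept their call whichever library was left out, and the other 5 lost it at least once. In the fits on the compared libraries alone Foxm1 against spleen lost its call too (adjusted p = 0.131), as did Mki67, Mcm2, Ccnd2 against inflammatory DCs and Foxm1 against inflammatory DCs.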

How the results depend on the processing

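No paired analysis was possible from the labels, because the titles number the libraries from 1 to 26 and the groups share no replicate numbers. The 2 spleen DC types had like Y-linked and Xist reads in KO replicate 1 (977.3 and 3619.7 in CD8a, 932.0 and 3092.4 in CD11b). The same held in KO replicate 2 (3049.2 and 12.0 in CD8a, 3295.1 and 21.4 in CD11b). Whether they share animals was not tested, and the fits treated them as independent. Counts are of the 49 genes called. With 1 library left out in turn they ran from 0 to 1 for the KO in spleen CD8a DCs (0 with all libraries), 8 to 29 in lung CD11b DCs (18), 8 to 10 in alveolar macrophages (10) and 0 to 5 in inflammatory DCs (2). For WT pairs they ran from 4 to 8 for CD8a against CD11b DCs (10), 12 to 26 for lung against spleen (26), 13 to 17 for alveolar macrophages (19) and 22 to 31 for inflammatory DCs (29) against lung CD11b DCs. For differences of KO effects they ran from 0 to 1 between spleen DCs (0), 1 to 7 for lung against spleen (3), 2 to 5 for alveolar macrophages (3) and 2 to 8 for inflammatory DCs (3) against lung. Where this left 1 spleen library in a group, it was assumed to vary like the other groups. Fits on the compared libraries alone gave 2 in KO lung CD11b DCs, 29 in KO alveolar macrophages, 0 in KO inflammatory DCs, 1 for WT spleen DCs, and 1 each for the KO effect differences of lung against spleen and inflammatory against lung. DESeq2 gave 1 in KO spleen CD11b DCs, 4 in KO inflammatory DCs and 5 for alveolar macrophages against lung. No filter gave 1 in KO inflammatory DCs, and 2 for lung against spleen and for alveolar macrophages against lung, where a pseudocount of 0.25 also gave 2. edgeR gave 2 for lung against spleen and for inflammatory against lung. The term for the lung libraries with fewest genes, added after the data were seen, gave 10 in KO lung CD11b DCs, 6 for alveolar macrophages against lung and 5 for inflammatory against lung. These causes were not tested. Single genes were recomputed only where the main fit had called them. Of these 1702 values 1447 kept direction and call, 255 lost the call and 0 reversed. The alternatives reuse the same libraries, which left little room for a reversal, and calls gained are not counted here. The printed intervals rest on means of 2 or 3 libraries per group and on a spread shared over all 26 libraries.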
